A study of Nannochloropsis oceanica with 15 samples.

Results

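The comparison of red light at 12 h with white light at 0 h rested on 6 of the 15 RNA-seq libraries of the study, 3 from each group, and on 9574 of 9756 gene models. A model was tested when it had at least 1 FPKM (fragments per kilobase of model, scaled to a constant of each library) in 3 or more of the 6 libraries. The cells were wild-type Nannochloropsis oceanica IMET1, a single-celled oil-storing marine alga, taken from column bioreactors kept at 25 °C in continuous light (about 80 µmol photons m-2 s-1), in medium with 427.5 mg/L sodium nitrate, and bubbled with air (0.04% CO2). White 0 h cells were taken at the switch of colour, and red 12 h cells after 12 h in red light. No white-light library from 12 h was analysed here, so light colour and time after the switch cannot be told apart. Whether libraries of a group stem from different cultures is not stated in the labels. The p-values rest on scatter between libraries, which may be technical. That scatter was estimated over all 15 libraries, so it includes the groups outside the comparison: with the 6 compared libraries alone 6789 genes passed, and without red 24 h library 1 7027 passed, against 5510 as reported.

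In algae of this kind light serves both as the energy source of photosynthesis and as a signal. Chlorophyll a absorbs red and blue light, whereas the carotenoids that pass energy to it absorb mainly blue and green light. Blue light is sensed by flavin-based receptors such as cryptochromes and, in this branch of the algae, aureochromes, which bind DNA as transcription factors. The deposited files pair the gene IDs with no names apart from DGAT1A, an acyltransferase of storage-oil synthesis. The genes of these systems could therefore not be picked out, and the cell type could not be checked against marker genes. The results are given by ID, by position and by the structure of the gene models.

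The recovered fragments in gene models numbered 5240000, 6100000 and 4440000 in white libraries 1, 2 and 3, and 6440000, 4330000 and 4170000 in red libraries 1, 2 and 3. White library 1 stood apart in scale, with a median of 20.3 FPKM against 24.7 and 25.0 in the other white libraries and 23.2 to 23.5 in red. The ratio of fragments in models to the library constant was 0.719 in it, 0.880 and 0.890 in the other white libraries and 0.907 to 0.911 in red. Across genes, which are not independent replicates, log2(FPKM + 1) correlated at 0.991 to 0.992 within each group and at 0.747 to 0.751 between a white and a red library. What that constant is could not be settled, since it was smaller than the fragments in models of red 24 h library 1 (a ratio of 1.08), so levels are relative within a library. In a culture measured in bulk fewer cells and less RNA per cell cannot be told apart.

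Most tested genes changed, and the large changes were mostly falls. The test was limma on log2(FPKM + 1), with Benjamini-Hochberg adjustment over all 9574 genes and a threshold of 0.05. In all, 5510 genes passed (57.6%), of which 3149 rose (32.9%) and 2361 fell (24.7%). Among passing genes with a log2 change between 0.5 and 1, 1793 rose and 663 fell. Between 1 and 2 the numbers were close, with 805 rises and 691 falls. From 2 to 3 there were 41 rises and 447 falls, from 3 to 4 there were 5 and 284, and at 4 or more 1 and 102. At least 2-fold changes thus comprised 852 rises (8.9%) and 1524 falls (15.9%), and at least 4-fold changes 47 rises (0.491%) and 833 falls (8.7%).

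**Figure D1:**
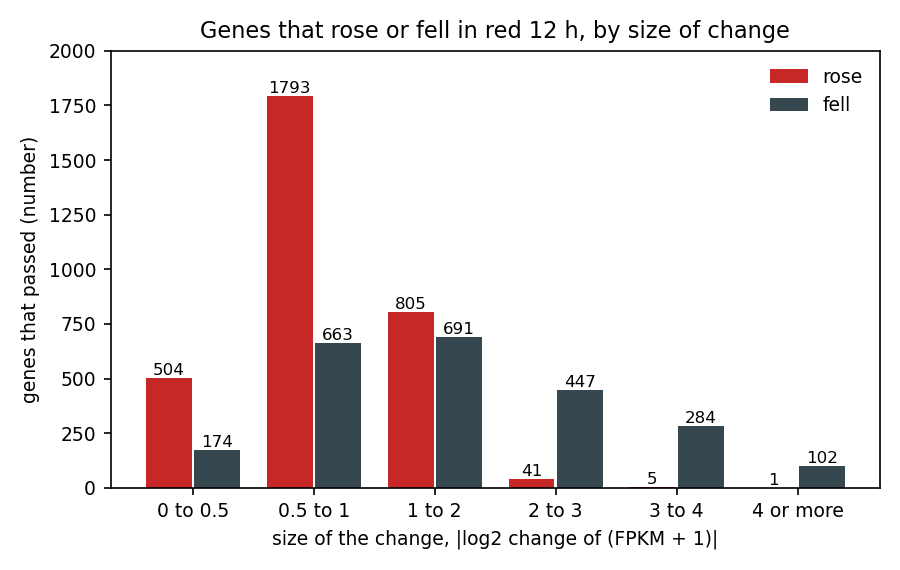
Number of genes that passed the limma test in red 12 h against white 0 h, by the size of the log2 change of FPKM + 1 (bars, rises and falls). Rises outnumber falls below a log2 change of 1, while 833 falls and 47 rises lie at 2 or more.

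Which direction prevailed among all calls depended on the scale of the libraries. With the deposited scaling 57.2% of the calls were rises, but 49.4% without white library 1, 47.3% when libraries were scaled to an equal sum over all but the 50 top genes, 47.8% with the fragments in gene models as the total and 47.8% with voom on the recovered fragments. Quantile normalization moved the share the other way, to 62.6%. The median change of all genes was 0.17 on the log2 scale with the deposited scaling, 0.07 without white library 1, 0.04 with the equal sum, the fragment total or voom, and 0.25 with quantile normalization. Among at least 2-fold calls the falls outnumbered the rises in the 31 alternatives run. The nearest to parity was quantile normalization, with 1359 rises and 1424 falls.

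**Figure D2:**
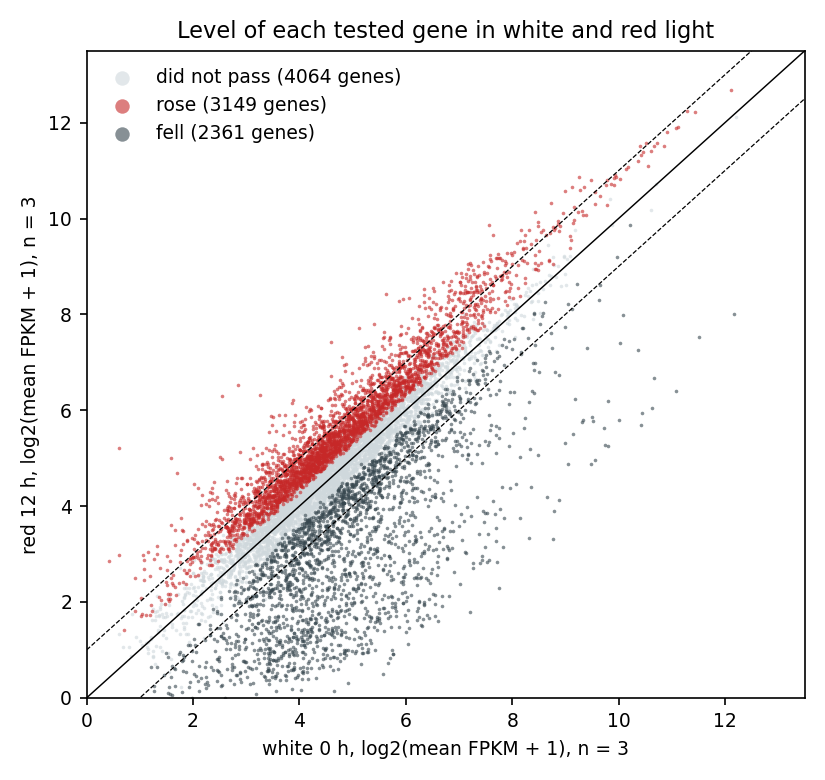
Mean level of each tested gene in white 0 h (x axis) and red 12 h (y axis), both as log2(mean FPKM + 1) over 3 libraries; the solid line marks equal levels and the dashed lines a difference of 1. The 3149 rising genes lie in a band along the line, whereas the 2361 falling genes reach much further from it.

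The genes that fell at least 2-fold took a smaller part of the FPKM sum in red. They held 20.8%, 20.7% and 20.9% of the FPKM sum in white libraries 1, 2 and 3, and 3.08%, 3.09% and 3.12% in red libraries 1, 2 and 3. Those that rose at least 2-fold went from 11.1% in each white library to 24.5%, 24.4% and 24.4% in red. The genes were chosen by this same contrast, so the shares describe their size and test nothing. The median falling gene stood at 26.5 FPKM in white and 4.52 in red, and the median rising gene at 25.1 in white and 64.7 in red. Both started near the 23.8 FPKM median of all tested genes in white.

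Turnover among the most abundant transcripts had the same shape. Of the 100 most abundant genes in white, 61 were also among the 100 most abundant in red. Of the 39 that left the list, 34 fell, 28 of them at least 4-fold, and 5 did not pass. Of the 39 that entered it, 37 rose, 33 of them at least 2-fold, and 2 did not pass. The 61 shared genes comprised 50 that rose, 2 that fell and 9 that did not pass. Over all tested genes 32.9% rose, 8.9% at least 2-fold, and 24.7% fell, 8.7% at least 4-fold. All these calls are those with the deposited scaling. Membership of these lists follows from the same libraries, so the directions are partly fixed by the choice.

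At the extreme, 23 genes were almost silent in red. Each had 31 to 302 fragments in every white library (2.80 to 61.5 FPKM) and at most 3 in every red library, and all 23 passed the test. They lay on 14 scaffolds, but 12 of them lay in runs of 5 or more neighbours that fell at least 2-fold. Such runs held 124 of all 1524 genes that fell at least 2-fold. In none of these 23 were all 3 red libraries at 0. All 3 red libraries were at 0 in 2 other tested genes, which had 2 to 27 fragments in the white libraries (2.83 to 5.55 FPKM) and passed, and both lay in runs of falling neighbours. No gene showed the reverse, with at most 3 fragments in every white library and more than 30 in every red one. The 23 genes and the 2 others were chosen by their values in the libraries that the test compares. That they passed is therefore largely fixed by the choice.

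Precision set what could be called. The median standard error of a log2 change was 0.18, which gives a 95% interval of ±0.39. Of the 4064 genes that did not pass, 3536 had an interval that stayed within a 2-fold change both ways, and for 528 a change of that size was not excluded by the interval. All 3 red libraries lay above all 3 white ones in 4257 genes (44.5%) and below them in 2758 (28.8%). Of these, 1134 higher (11.8%) and 410 lower genes (4.28%) did not pass, while 39 genes (0.407%) passed with overlapping groups.

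Among genes with at least 10 FPKM in both groups, scaffold00140.g4815 lost the most in level. The model has 6 exons (IMET v2, scaffold00140, 855415 to 857702, plus strand). It held 4040, 4846 and 4873 FPKM in white libraries 1, 2 and 3, and 279, 255 and 237 FPKM in red libraries 1, 2 and 3. The groups were far apart, and white library 1 was the lowest of the white ones. The mean fell from 4586 ± 474 FPKM (SD, n = 3), the second most abundant transcript in white, to 256.8 ± 21.1, rank 336 in red. That is 17.9-fold lower, with a log2 change of -4.15 ± 0.16 (SE; limma adjusted p = 2.58e-11).

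This gene was the second of 5 tested neighbours that all fell at least 2-fold (848952 to 869795). The first of them (848952 to 854570, minus strand) fell from 2156 ± 269.8 FPKM (SD, n = 3) to 83.0 ± 3.20 and was the ninth most abundant transcript in white. The third (857986 to 864350, minus strand) fell from 711 ± 82.7 to 28.3 ± 1.45 FPKM. The last 2 were low in white, at 23.2 ± 3.17 and 15.4 ± 2.22 FPKM, and fell to 3.15 ± 1.43 and 1.14 ± 0.416. The log2 changes of the 5 genes ran from -4.67 to -2.60 (limma adjusted p 2.38e-12 to 2.72e-07).

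The steepest fall among genes with at least 10 FPKM in both groups was that of scaffold00214.g6270, a model of 4 exons (scaffold00214, 636824 to 638738, plus strand). White libraries 1, 2 and 3 held 377, 481 and 469 FPKM, from 2865 to 4084 fragments. Red libraries 1, 2 and 3 held 15.8, 12.4 and 13.2 FPKM, from 72 to 137 fragments. All red libraries were far below all white ones, with means of 442 ± 57.1 and 13.8 ± 1.80 FPKM (SD, n = 3), a 32.0-fold difference. The log2 change was -4.90 ± 0.20 (SE; limma adjusted p = 4.03e-11). The next model downstream on the same strand, 365 nt away, had mean levels of 31.1 FPKM in white and 3.90 in red (log2 change -2.71 ± 0.13, limma adjusted p = 2.17e-10). The 3 models upstream and the second one downstream did not pass, and the third one downstream rose (log2 change 0.58 ± 0.19, limma adjusted p = 0.0190).

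The largest rise by this rule was that of scaffold00066.g2196, a model of 2 exons (scaffold00066, 19473 to 20961, minus strand). White libraries 1, 2 and 3 held 20.3, 27.1 and 21.8 FPKM, and red libraries 1, 2 and 3 held 177, 167 and 166 FPKM. The red values were tight and well above the white ones, and the mean rose 7.38-fold from 23.0 ± 3.55 to 170.0 ± 5.86 FPKM (SD, n = 3). The log2 change was 2.84 ± 0.11 (SE; limma adjusted p = 2.90e-11). It lay within an unbroken stretch of 7 tested genes that all rose, from 10539 to 35931 near the start of the scaffold, with log2 changes from 0.56 to 2.84. Of these 7 genes, 4 rose at least 2-fold, and the calls of its neighbours are those with the deposited scaling. A gene of that stretch with 2 exons on the plus strand (16406 to 17774) had mean levels of 569 FPKM in white and 1214 in red (log2 change 1.10 ± 0.11, adjusted p = 6.06e-07). Over the whole scaffold 18 of 56 tested genes rose, the 7 included, and 14 fell. These shares were near those over all tested genes (32.9% rose and 24.7% fell).

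The largest gain in level was that of scaffold00007.g240, a single-exon model (scaffold00007, 625972 to 627453, minus strand). It held 2156, 2660 and 2671 FPKM in white libraries 1, 2 and 3, and 4891, 4903 and 4815 FPKM in red libraries 1, 2 and 3. The groups did not overlap, and the mean went from 2496 ± 294 FPKM (SD, n = 3), rank 6 in white, to 4870 ± 47.5, rank 2 in red. The fold was 1.95 and the log2 change 0.97 ± 0.18 (SE; limma adjusted p = 0.000339). With quantile normalization the log2 change was 0.49 (adjusted p = 2.85e-05). The neighbour at lower coordinates had mean levels of 98.5 FPKM in white and 141 in red (log2 change 0.52 ± 0.21). With the deposited scaling its call as a rise lay just under the threshold (limma adjusted p = 0.0491). The neighbour on the other side did not pass.

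DGAT1A, whose enzyme class makes triacylglycerol from diacylglycerol, did not pass. White libraries 1, 2 and 3 held 20.9, 28.3 and 31.1 FPKM, and red libraries 1, 2 and 3 held 34.8, 32.5 and 34.3. The groups did not overlap, and white library 1 was the lowest. The log2 difference was 0.35 with a 95% interval from -0.02 to 0.71 (limma adjusted p = 0.0966). It passed in 7 of 31 alternatives, including a fit that left out red 24 h library 1 (adjusted p = 0.00953), which enters only the pooled spread. Without white library 1 the log2 difference was 0.18 (adjusted p = 0.382). DGAT1A was the 1 gene of a list of triacylglycerol assembly genes that the files name, and no gene of the lists of photoreceptors and of light-harvesting proteins could be matched.

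The values of the named genes in the other groups share the white libraries or the fit with those above. In blue 12 h, scaffold00066.g2196 held 52.2 ± 1.71 FPKM (SD, n = 3) against 170.0 ± 5.86 in red 12 h, a log2 difference of -1.69 ± 0.11 (SE; limma adjusted p = 1.15e-06). For scaffold00140.g4815, blue 12 h held 259 ± 5.83 FPKM against 256.8 ± 21.1 in red 12 h, and the log2 difference was 0.02 ± 0.16 (adjusted p = 0.984). The same comparison gave 0.25 ± 0.20 (adjusted p = 0.682) for scaffold00214.g6270 and 0.08 ± 0.18 (adjusted p = 0.922) for scaffold00007.g240. A p above the threshold does not show that the colours acted alike.

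**Figure D3:**
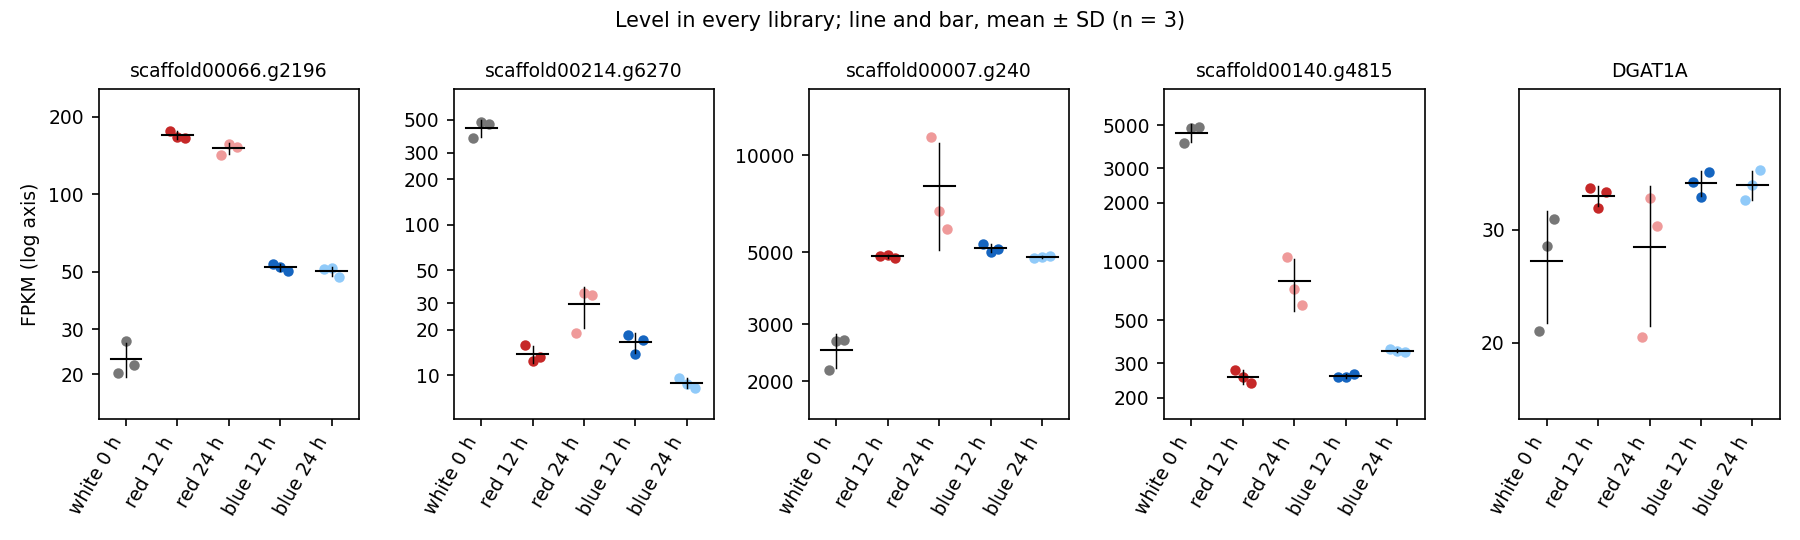
FPKM (log axes, each panel with its own range) of the 4 genes chosen by rule and of DGAT1A in all 15 libraries, with points for libraries and lines for the mean ± SD (n = 3). The white and red 12 h points are clearly apart in the first 4 panels, and in DGAT1A they lie close, from 20.9 to 31.1 FPKM in white and 32.5 to 34.8 in red 12 h.

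Some falls lay in runs of neighbouring genes. Counting tested genes in order along each scaffold, 16 runs of 5 or more neighbours fell at least 2-fold, with 124 genes in all (8.14% of the 1524 falls), and there was no such run of rises. The number of genes in falling runs was 106 to 151 in the 23 alternatives recomputed, and rising runs appeared in 1 of them, quantile normalization, with 16 genes. Of the 16 runs, 5 reached the last model of their scaffold and 1 the first, holding 69 genes, and 10 with 55 genes lay inside. The median log2 change of a run was between -4.46 and -2.05.

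The 2 longest runs closed scaffold00295 (29 genes) and scaffold00026 (15 genes), with median changes of -4.43 and -3.71. Inside scaffolds the longest was a run of 7 genes on scaffold00259 (14871 to 41940). Its members stood between 36.2 and 316 FPKM in white and between 1.58 and 20.9 in red, with log2 changes from -4.98 to -3.45. The run at the start of scaffold00043 held 9 genes from position 1 to 23351, with a median of 19.7 FPKM in white and 3.87 in red. A run of 5 genes on scaffold00007 (839541 to 850991) fell from a median of 42.9 to 0.871 FPKM, on the scaffold that also carries the gene with the largest gain.

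**Figure D4:**
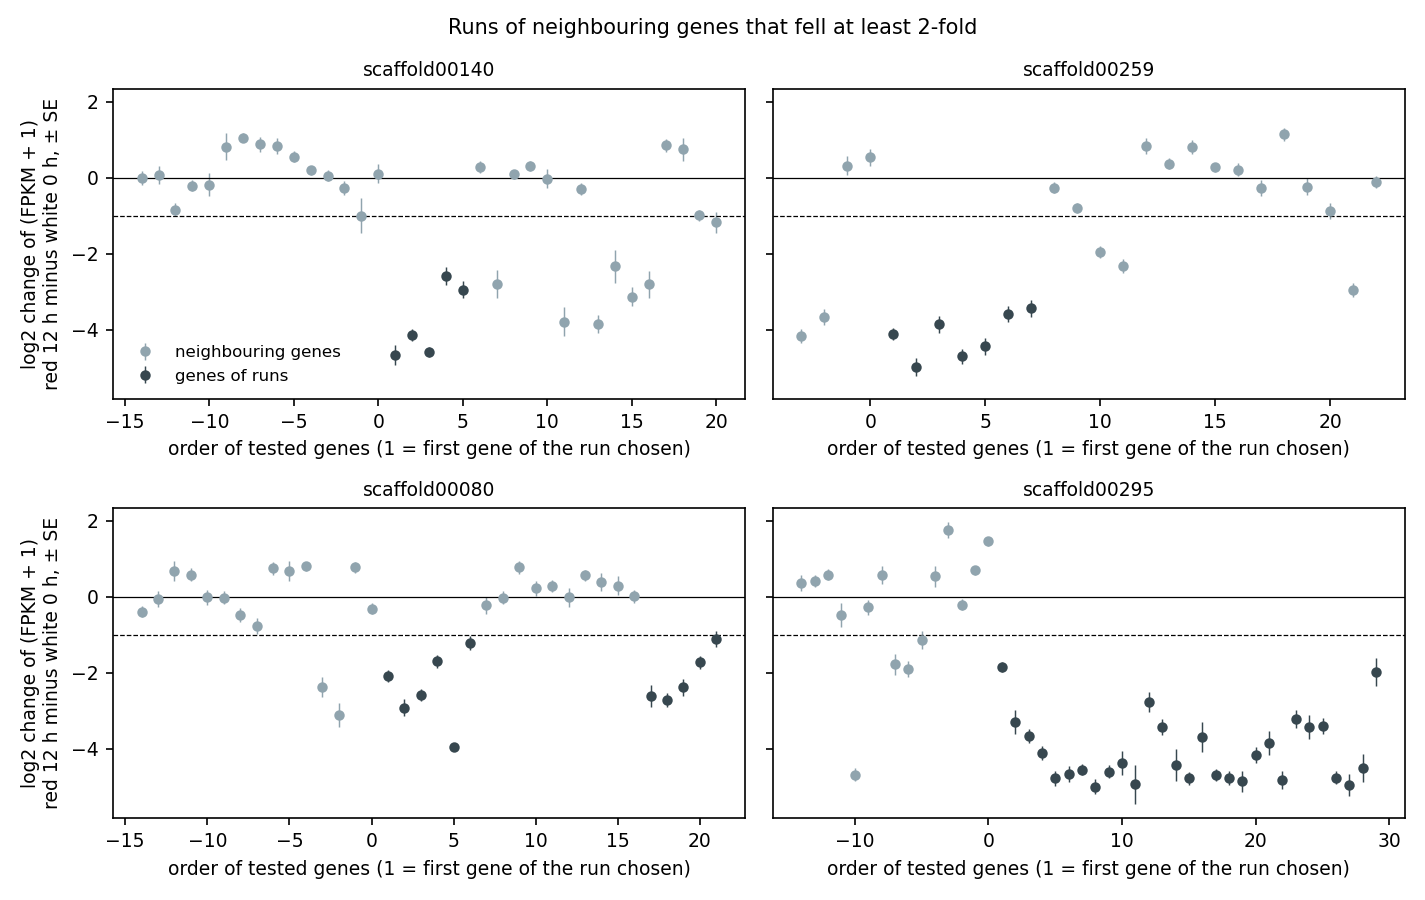
Log2 change of FPKM + 1 (red 12 h minus white 0 h, ± SE) of tested genes in order along 4 scaffolds, around the falling runs with the highest median FPKM in white, chosen after their values were seen. Genes of runs (dark) lie below the dashed line at -1, including a second run of 5 genes on scaffold00080, and some of the other genes shown lie below that line too.

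Neighbouring genes also changed in the same direction where no run was involved, as a description with no test. Of the 1400 genes of no run that fell at least 2-fold, 46.2% had an adjacent tested gene that did the same, against 23.6% of the genes that did not fall so far. Of the 852 that rose at least 2-fold the share was 39.8%, against 14.3% of the other genes of no run. Over 9160 adjacent pairs with no gene of a run, the log2 changes correlated at 0.18 (Pearson) and 0.19 (Spearman). With the genes of runs included, 9293 pairs gave 0.26 and 0.22. By orientation and without the runs, the Pearson correlation was 0.29 over 3099 divergent pairs, whose starts face each other, 0.18 over 2990 pairs on the same strand and 0.08 over 3071 convergent pairs. The median gap between the models was 164, 258 and 37 nt in the same order. The points share the 6 libraries, and whether the counting used strand is not given in the sources used here, so reads of close neighbours may have been assigned to either.

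The share of falls was higher near the ends of scaffolds, as a description with no test. Of 536 tested genes among the first or last 5 models of scaffolds with more than 10 models, 24.1% fell at least 2-fold and 6.53% rose, against 15.5% and 9.05% of the 8616 genes further inside. With quantile normalization the shares of rises were close, at 13.8% near the ends and 14.0% further inside. Over all tested genes these shares were 15.9% and 8.9%. Without the genes of runs the shares of falls were 18.9% and 14.6%. Genes near the ends had a median of 157 fragments per library, against 248 further inside, and their median in white was 19.8 FPKM against 24.4. The part of these differences in the result was not tested.

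The share of falls was also higher among longer models, again with no test. In 4 classes of about equal size by exon length, the share that fell at least 2-fold was 12.7% in the shortest models (188 to 1166 nt), 13.0% and 18.1% in the classes between, and 19.8% in the longest (2546 to 25614 nt). Rises of that size went the other way, from 10.5% to 6.69%. Longer models also carried more fragments, with a median of 116 per library in the shortest class and 397 in the longest, and the part of depth in the result was not tested. With each library's trend with length removed, the falls in the shortest and longest class were 13.8% and 17.8%, and the rises 7.85% and 9.99%, the reverse order for rises. By exon number, falls ran from 14.1% (5 to 7 exons) to 18.6% (8 or more exons) and rises from 6.47% (8 or more exons) to 9.59% (1 exon). Over all tested genes 15.9% fell and 8.9% rose that far. With the length trend removed, rises were 8.95% with 8 or more exons and 8.67% with 1 exon, and falls 17.9% and 16.4%. Models of 8 or more exons were also the longest, with a median of 2572 nt against 1545 nt for single-exon models.

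**Figure D5:**
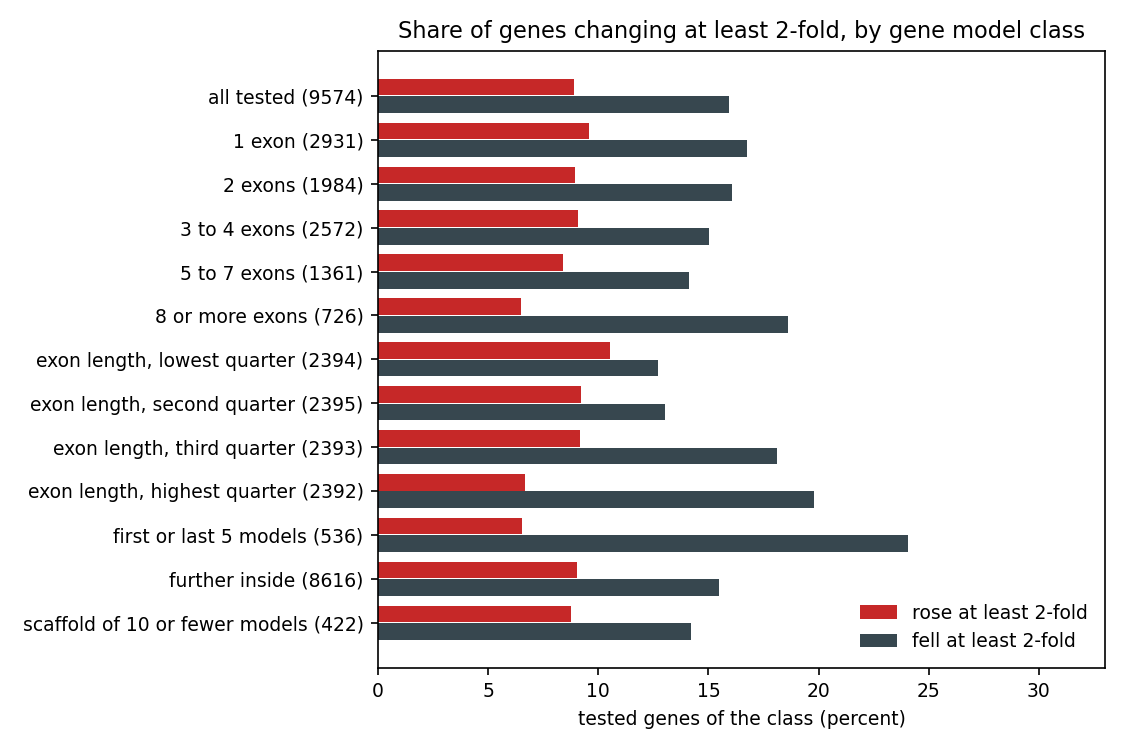
Percent of tested genes that rose or fell at least 2-fold in red 12 h (bars), over all tested genes and by number of exons, class of exon length and distance from the scaffold end, with the number of genes in brackets. With the deposited scaling, though not in every class with quantile normalization, falls exceed rises in each class, by the most among the first or last 5 models (24.1% and 6.53%).

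Falls and rises occurred at every level in white. In 4 classes of equal size by white level, at least 2-fold falls made up 14.0%, 15.5%, 15.1% and 19.0% of genes from the lowest to the highest class, and rises of that size 11.0%, 6.10%, 6.44% and 12.0%. Falls of at least 4-fold made up 5.81% of the lowest class and 11.9% of the highest. The white libraries enter both the classes and the changes. In classes by the mean over all 6 libraries, which a fall itself lowers, 33.3% of the genes in the lowest fell and 5.60% rose at least 2-fold, against 7.10% and 16.4% in the highest. With quantile normalization 25.4% fell and 25.1% rose in the lowest class, against 9.69% and 10.2% in the highest, so the order of the rises turned round.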

How the data were processed

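The authors deposited FPKM values per gene model and library, 1 table per group, and gene models named IMET v2. Cufflinks 2.0.4, TopHat2 2.0.4 and TopHat are listed, without settings, in the submitters' processing notes; the genome build is not given in the sources used here. The labels' protocols give Trizol extraction and a TruSeq kit with 1 µg of total RNA. A header of the red 12 h table repeats a name, and the last library was read through the sample name in the same rows. A low FPKM times effective length and a library constant gave whole fragments (within 0.1) for 100% of the values standing for at most 30 fragments in models of at least 500 nt effective length. These fragments gave the depths and 2 alternatives (voom, and the fragments in gene models as the total).

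log2(FPKM + 1) values were tested in R 4.3.3 with limma 3.58.1: 1 fit of all 15 libraries with a mean per group and eBayes with a trend, two-sided. Genes with at least 1 FPKM in 3 of the 6 compared libraries were tested. The fit was also run on simulated libraries, which had the same scale and, for each gene, the same spread in all groups. That run therefore does not cover the differences in scale and spread of the real libraries. Folds are ratios of mean FPKM. Named genes had to pass, with groups that did not overlap and at least 10 FPKM in both; those with the largest log2 rise and fall and the largest FPKM gain and loss were named, 4 in all because IDs carry no names, besides DGAT1A. The reference table of 160 organelle genes matched 0 IDs. Members, lists and classes were chosen with earlier results of these data known. Near-identical gene copies were not checked, for want of sequence. Counts and medians used Python 3.11.15 and pandas 2.3.3.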

Additional observations from a re-analysis of the deposited data

Results flagged for a closer look

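For 4 genes the change from white light in red 12 h differed from that in another group, by limma's test of the difference itself. In blue 12 h scaffold00066.g2196 was lower than in red 12 h by a log2 difference of -1.69 (adjusted p = 1.15e-06), with all 3 blue libraries below all 3 red ones. It passed without any of the 15 libraries, with values from -1.71 to -1.66. In red 24 h, scaffold00140.g4815 was higher than in red 12 h by 1.59 (adjusted p = 1.56e-05), and its red 24 h libraries 1, 2 and 3 held 1057, 721 and 601 FPKM. Without red 24 h library 1 the difference was 1.36 (adjusted p = 2.32e-10). In red 24 h, scaffold00214.g6270 was higher than in red 12 h by 1.00 (adjusted p = 0.00322), with 19.2, 35.4 and 34.0 FPKM in red 24 h libraries 1, 2 and 3 and a difference of 1.28 without library 1. In red 24 h, scaffold00007.g240 was higher than in red 12 h by 0.66 (adjusted p = 0.0178). Its red 24 h libraries held 11353, 6743 and 5928 FPKM, the difference was 0.38 (adjusted p = 0.00386) without red 24 h library 1, and the call was lost without red 12 h library 2 (0.0543) or red 12 h library 3 (0.0586). The red 12 h libraries enter both the choice of these genes and the differences. Apart from leaving out single libraries, these tests were run with the deposited scaling only. The ratio of fragments in models to the library constant was 1.08, 0.962 and 0.953 in red 24 h libraries 1, 2 and 3. In red 12 h it was 0.907 to 0.911, and the part of scale in these differences was not tested.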

How the results depend on the processing

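Over 31 alternatives the number of genes passing was 1269 to 7575 and at least 2-fold falls numbered 1043 to 1753. With a null of up to 2-fold change (limma's treat) 1269 genes passed, 226 rising and 1043 falling, and scaffold00007.g240 no longer passed (adjusted p = 1). Quantile normalization gave 1359 rises of at least 2-fold. The other alternatives kept the 5 counts within 1.5 times of the reported ones, and the 3 other genes chosen by rule passed in all 31. Leaving out 1 library gave 4851 (white library 1) to 7027 genes (red 24 h library 1). Leaving out white library 1 and red 24 h library 1 together, chosen after seeing the data as was the total of fragments in gene models, gave 6874. With the replicate number as a block 5561 genes passed. The deviations of same-numbered white and red libraries correlated at -0.01 to 0.02, which shows no pairing by number. That check cannot exclude a shared culture or day. Libraries of the same group were not copies of the same values, since chi-square over degrees of freedom for their fragments lay between 1.32 and 1.95. Counting noise alone gives about 1, and these values do not tell whether the libraries stem from different cultures. Genes of few fragments limit what can be called.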

Other observations

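Most large scaffolds had more strong falls than strong rises. Of the 29 scaffolds with at least 100 tested genes, which carry 8314 of them, 27 had more at least 2-fold falls than rises. Over all tested genes 15.9% fell and 8.9% rose that far, so the lean to falls is not particular to these scaffolds. The share of such falls ran from 10.0% on scaffold00330 (498 tested genes) to 22.2% on scaffold00069 (194 tested genes), and the median log2 change from -0.02 on scaffold00324 to 0.31 on scaffold00252. The scaffolds with more rises than falls of that size were scaffold00096 (38 rises, 35 falls) and scaffold00252 (19 rises, 17 falls). These counts were not redone with quantile normalization, which gave 1359 rises and 1424 falls of that size over all tested genes.

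Scaffolds of 5 or fewer models held 380 tested genes, of which 13.2% fell and 9.21% rose at least 2-fold, and those of 6 to 50 models held 568, with 19.7% and 6.87%. On larger scaffolds the shares were 15.8% and 9.02%, and over all tested genes 15.9% and 8.9%. Models on scaffolds of 5 or fewer had medians of 97.7 fragments per library and 1039 nt. On scaffolds of more than 50 models these were 246.5 fragments and 1779 nt. The part of depth and length in the shares was not tested.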
